A study of Rattus norvegicus with 25 samples.

Results

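The IL-1 and gp130 cytokine genes were followed here in the hippocampus of rats with a brain injury. The group held 10 genes picked by symbol from the deposited count table, out of 34315 genes with counts in all libraries. All 10 had a row, and 9 had enough reads to be tested beside 21064 genes in all. They were the ligands Il1b, Il6 and Lif, the natural IL-1 antagonist Il1rn, the receptors Il1r1, Il6st (the shared subunit gp130), Osmr and Lifr, the transcription factor Stat3 and its feedback inhibitor Socs3.

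The injury was controlled cortical impact (CCI), in which a piston strikes the exposed cortex above the hippocampus. TD-CCI, TCF-CCI and TNF-CCI rats had the impact and a supplement from thymus. TD is labelled thymus, TCF a cytosolic factor of thymus and TNF a nuclear factor of thymus. Vehicle-CCI rats had the impact and vehicle, and Vehicle-sham rats had sham surgery and vehicle. In the name TNF-CCI the letters stand for the supplement, not for the cytokine. Each of the 5 groups had 5 libraries of polyA RNA, from male Sprague-Dawley adults 6 to 7 weeks old. The labels used here state neither dose nor time after the impact, side of the brain or pooling. The labels do not say that each library is a separate animal, so a p-value measures only the spread between libraries, part of which may be technical.

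IL-1 beta is made by activated microglia and macrophages and acts on the receptor encoded by Il1r1, and Il1rn encodes an antagonist that occupies this receptor without signalling. IL-6, LIF, oncostatin M and related cytokines all signal through gp130 together with partner receptor chains, and the receptor complexes activate STAT3 through Janus kinases. STAT3 then induces SOCS3, which blocks further signalling at gp130. In injured brain this route is known for its part in astrocyte reactivity.

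Upstream sequences are shown for Il6 and Il1b, the classical inflammatory ligands of the group, because their RefSeq entries begin at the start of the gene. In the GRCr8 promoter table from RefSeq, 9 of the 10 members had an entry, and only for these 2 did it lie at the outermost annotated start of the gene. For the other 7 it began inside the gene, and Lif had none. The 250 bases before the start run 5′ to 3′ on the gene's strand, and capitals mark motif matches.
Il6, chr4:5894576-5894825, minus strand, GRCr8: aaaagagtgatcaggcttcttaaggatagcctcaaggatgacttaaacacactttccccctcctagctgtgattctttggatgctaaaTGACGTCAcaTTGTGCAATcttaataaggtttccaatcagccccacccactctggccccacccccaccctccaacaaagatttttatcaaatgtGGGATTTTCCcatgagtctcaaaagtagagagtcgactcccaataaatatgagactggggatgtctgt
Il1b, chr3:137036582-137036831, minus strand, GRCr8: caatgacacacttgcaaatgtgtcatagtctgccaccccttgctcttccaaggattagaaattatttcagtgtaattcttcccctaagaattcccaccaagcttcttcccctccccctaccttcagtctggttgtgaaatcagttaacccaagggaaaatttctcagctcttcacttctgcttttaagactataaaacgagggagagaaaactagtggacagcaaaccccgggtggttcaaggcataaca

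Both strands were searched for 5 motifs. The Il6 window held the CRE motif TGACGTCA, 162 bases before the start, which 1.59% of all 33469 promoter windows of this length hold. It also held the C/EBP motif TTNNGCAAT at 152 bases (2.04% of windows) and the NF-kB motif at 68 bases (6.33% of windows), and these 3 matches do not overlap. Neither window held the STAT motif TTCNNNGAA (7.67% of windows) or the AP-1 motif TGANTCA (6.34% of windows), and the Il1b window held none of the 5. These are letter matches and not measured binding.

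Library totals ran from 27.3 to 44.9 M counts. Vehicle-sham 2 and 3 stood apart, with 25.63% and 17.26% of their counts on mitochondrial rRNA against 2.18% to 10.90% in the other libraries. Without these 2 no gene passed in either comparison with sham that carries the calls below, at an unadjusted p under 0.05 for 15.4% of 21533 genes in the mean of the CCI groups and 13.8% in TNF-CCI (edgeR). Every gene called over sham by edgeR below therefore loses its call without them, and values without them stand beside the calls. Fewer sham libraries then remain, so a lost call alone does not part the effect of these 2 from that of a smaller sham group. The neuronal genes Rbfox3 and Snap25 were present in every group, at 131 ± 29.2 and 720.0 ± 174 CPM (counts per 1000000 in a library scaled by its TMM factor; SD, n = 20) over the CCI libraries and at 172 ± 31.9 and 978 ± 266 CPM (n = 5) in Vehicle-sham. Vehicle-CCI 3 carried a summed level of 3880 CPM over 5 choroid plexus markers and TD-CCI 4 a sum of 236 CPM over 4 thalamus markers, each the highest of the 25 libraries.

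The mRNA levels of the 10 genes spanned a wide range. Per kilobase of exon, Il6st was the most abundant in the CCI libraries, at 11.6 ± 3.35 CPM per kb (SD, n = 20). Stat3 followed at 9.24 ± 2.59, Lifr at 3.64 ± 0.646, Socs3 at 1.76 ± 1.25, Il1r1 at 1.18 ± 0.33 and Osmr at 0.992 ± 0.493 CPM per kb. The ligands and the antagonist stood lowest, with Il1b at 0.435 ± 0.171, Il1rn at 0.265 ± 0.168, Lif at 0.257 ± 0.142 and Il6 at 0.104 ± 0.0672 CPM per kb. In Vehicle-sham the same scale gave 7.33 ± 2.00 for Il6st, 6.24 ± 2.16 for Stat3, 4.00 ± 1.26 for Lifr, 0.623 ± 0.0867 for Il1r1, 0.438 ± 0.316 for Socs3 and 0.406 ± 0.197 for Osmr (n = 5). Over the CCI libraries, Stat3 and Lifr were the only neighbours in that order whose ranges of mean ± SD did not overlap. There all 4 receptor chains, Stat3 and Socs3 had higher means per length than any ligand.

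**Figure D1:**
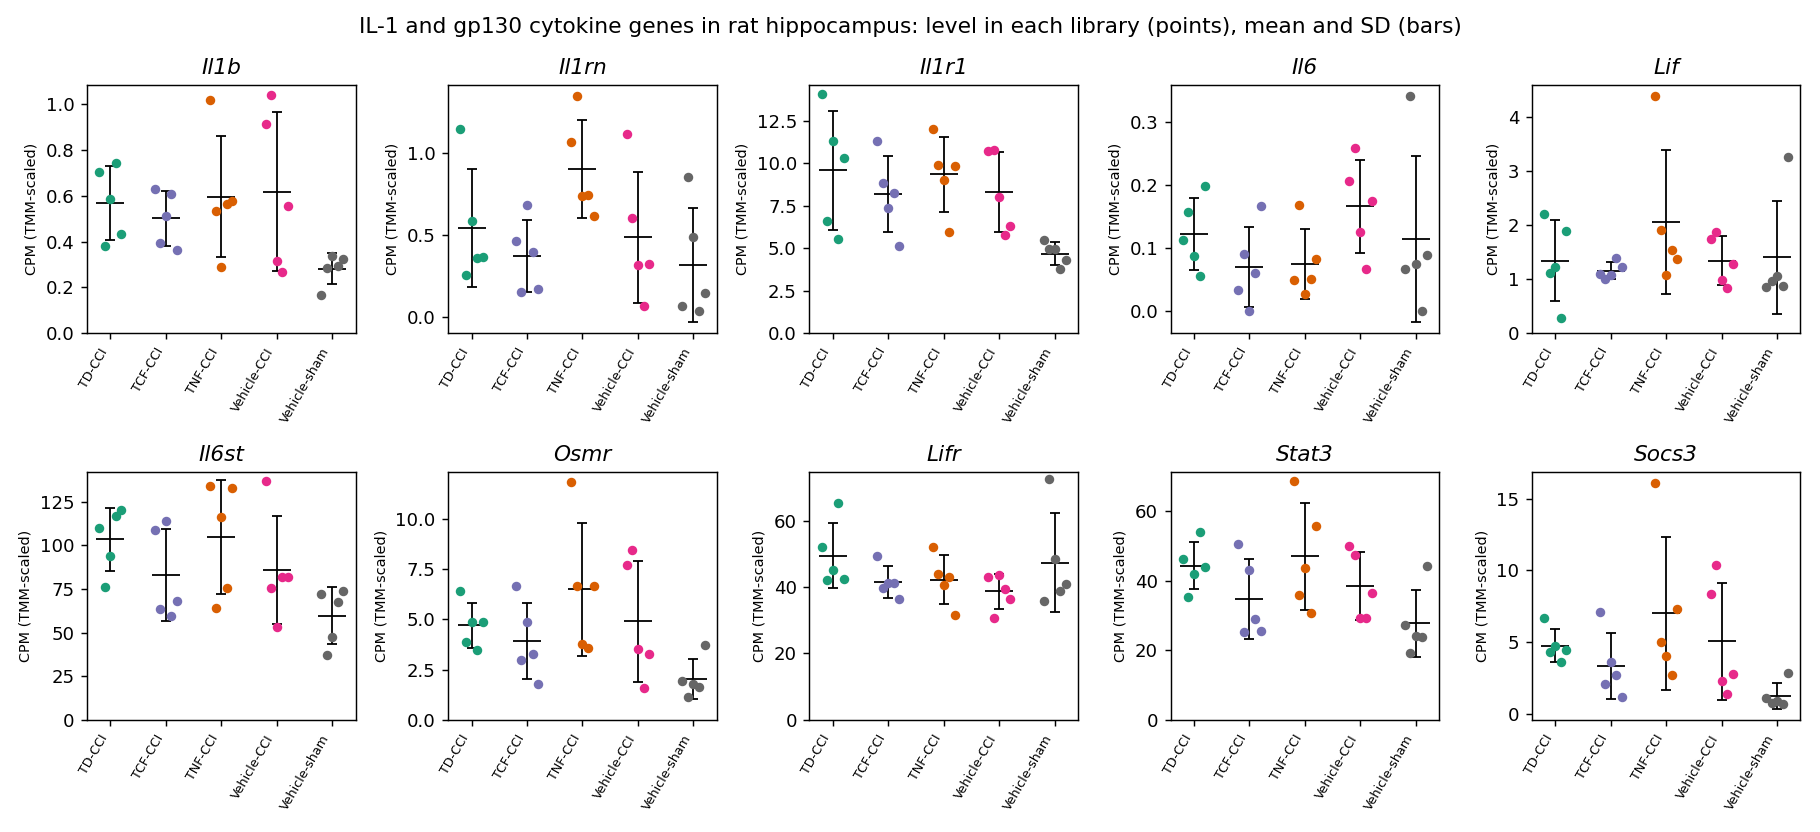
Level of each of the 10 genes in CPM (TMM-scaled, linear axis) in the 25 libraries, by group; points are libraries, the bar is the group mean with its SD. Il1r1 lay above every Vehicle-sham library in 19 of 20 CCI libraries, Socs3 in 13 and Lifr in 0.

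Il1b lay at the edge of detection in Vehicle-sham and at low levels in all injured groups, whose ranges overlapped one another. Its raw counts were 25, 12, 20, 27 and 13 in TD-CCI, 19, 13, 18, 20 and 11 in TCF-CCI, 42, 19, 11, 22 and 28 in TNF-CCI, 31, 36, 10, 8 and 19 in Vehicle-CCI, and 5, 5, 9, 9 and 11 in Vehicle-sham. In CPM, 17 of 20 CCI libraries lay above every Vehicle-sham library, and both groups of libraries overlapped. Means were 0.571 ± 0.225 CPM (SD, n = 20) in the CCI libraries and 0.281 ± 0.0683 CPM (n = 5) in Vehicle-sham. The log2 fold change of the mean of the 4 CCI groups over Vehicle-sham was 1.01 ± 0.32 (SE) and missed the threshold of 0.05 (adjusted p = 0.0582, edgeR quasi-likelihood test, Benjamini-Hochberg over all genes tested).

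Il1rn, the antagonist, varied more between libraries than Il1b. Its counts were 41, 8, 20, 13 and 11 in TD-CCI, 14, 5, 24, 13 and 5 in TCF-CCI, 44, 48, 28, 29 and 30 in TNF-CCI, 38, 21, 10, 2 and 11 in Vehicle-CCI, and 2, 15, 13, 1 and 5 in Vehicle-sham. The 5 TNF-CCI libraries ran from 0.618 to 1.35 CPM and the sham libraries from 0.0326 to 0.854 CPM, with overlap. The log2 fold change over Vehicle-sham was 1.62 ± 0.65 in TNF-CCI (edgeR, adjusted p = 0.154) and 0.91 ± 0.56 for the mean of the CCI groups (adjusted p = 0.324), and neither passed. The span of Il1rn overlaps that of Il36b on the opposite strand, and whether their exons overlap was not checked. The sources do not say whether reads were counted by strand, so it is not known whether any of its few reads come from Il36b.

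The log2 ratio of Il1rn to Il1b counts, with 0.5 added to each count, was -0.20 ± 0.82 (SD, n = 20) over the CCI libraries and -0.57 ± 1.61 (n = 5) in Vehicle-sham. The difference of 0.38 was within the spread (two-sided exact permutation test over 53130 regroupings, p = 0.457). It turned to -0.15 without Vehicle-sham 4, whose Il1rn count was 1. Without Vehicle-sham 2 and 3, whose Il1rn counts were 15 and 13, it was 1.43 and passed (two-sided exact permutation test, p = 0.013, adjusted over 3 ratios 0.0195). The result for this ratio thus depends on which sham libraries are kept.

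Il1r1, the signalling receptor of IL-1, had the smallest standard error of the 3 members that rose. Its levels were 14.1, 6.62, 11.3, 5.57 and 10.3 CPM in TD-CCI, 11.3, 8.83, 7.35, 8.27 and 5.15 in TCF-CCI, 12.0, 9.93, 9.0, 5.97 and 9.85 in TNF-CCI, 10.7, 10.8, 8.03, 5.77 and 6.31 in Vehicle-CCI, and 5.46, 4.95, 4.96, 3.78 and 4.30 in Vehicle-sham. TCF-CCI 5 alone lay within the sham range, and the sham libraries lay close together. Il1r1 rose in the CCI groups by a log2 fold change of 0.91 ± 0.21 (adjusted p = 0.024, edgeR). In bulk tissue, more cells that carry a transcript and more transcript per cell cannot be told apart, here and for every gene below.

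Il6 stayed at or near the floor of detection in every group. Its raw counts were 4, 5, 3, 2 and 6 in TD-CCI, 1, 3, 0, 2 and 5 in TCF-CCI, 2, 6, 1, 2 and 4 in TNF-CCI, 7, 9, 4, 2 and 6 in Vehicle-CCI, and 2, 6, 2, 0 and 3 in Vehicle-sham. A count of 0 allows up to 3 counts per library. With counts from 0 to 9 per library, a small difference in Il6 was not detectable at this depth. The gene failed the low-count filter and was not tested. Lif, the other ligand among the members, averaged 1.47 ± 0.817 CPM (SD, n = 20) in the CCI libraries and 1.41 ± 1.05 CPM (n = 5) in Vehicle-sham. Its log2 fold change for the mean of the CCI groups was 0.02 ± 0.36 (edgeR, adjusted p = 0.98), and its sign turned with several alternatives, as given in the closing section. TNF-CCI 1 reached 4.39 CPM and Vehicle-sham 5 reached 3.27 CPM, and the other 19 injured libraries lay from 0.274 to 2.20 CPM.

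Il6st, the gp130 chain itself, averaged 94.1 ± 27.3 CPM (SD, n = 20) in the CCI libraries and 59.6 ± 16.3 CPM (n = 5) in Vehicle-sham. All 5 TD-CCI libraries, at 110.0, 76.2, 93.8, 117 and 120.0 CPM, lay above the sham libraries at 72.3, 37.2, 47.7, 67.3 and 73.8 CPM. Over all injured libraries 15 of 20 did so, and the log2 fold change of 0.65 ± 0.21 for the mean of the CCI groups did not pass (adjusted p = 0.0624, edgeR). Lifr, the LIF receptor chain that also pairs with gp130, averaged 43.0 ± 7.63 CPM in the CCI libraries and 47.3 ± 14.9 CPM in Vehicle-sham. Its log2 fold change of -0.14 ± 0.14 was not past the threshold (adjusted p = 0.546, 95% confidence interval -0.42 to 0.14), and it turned to 0.09 without Vehicle-sham 2, where Lifr was highest at 72.6 CPM.

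Osmr, the oncostatin M receptor chain, differed from Lifr. Its levels were 6.39, 3.86, 4.88, 3.46 and 4.88 CPM in TD-CCI, 6.65, 2.97, 4.87, 3.30 and 1.76 in TCF-CCI, 11.8, 6.65, 3.76, 3.58 and 6.64 in TNF-CCI, 7.71, 8.46, 3.54, 1.57 and 3.26 in Vehicle-CCI, and 1.95, 1.14, 1.77, 1.63 and 3.74 in Vehicle-sham. TNF-CCI 1 was highest, and 8 injured libraries lay within the range of the sham libraries, whose upper end was Vehicle-sham 5. Osmr rose by a log2 fold change of 1.25 ± 0.36 for the mean of the CCI groups (adjusted p = 0.0416, edgeR), and 12 of 20 injured libraries lay above every sham library.

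The 2 partner chains were compared within each library. The log2 ratio of Osmr to Lifr counts was -3.24 ± 0.73 (SD, n = 20) over the CCI libraries and -4.58 ± 0.92 (n = 5) in Vehicle-sham. The difference of 1.34 was larger than the spread (two-sided exact permutation test, p = 0.00213, adjusted over 3 ratios 0.00319). It was 0.82 without Vehicle-sham 2 and 3 and did not pass (two-sided exact permutation test, p = 0.083). By group the mean log2 ratio was -3.40 ± 0.49 in TD-CCI, -3.53 ± 0.58 in TCF-CCI, -2.82 ± 0.66 in TNF-CCI and -3.22 ± 1.08 in Vehicle-CCI (n = 5 each). A ratio within a library is free of its scaling factor and shows unequal change of the chains, not which one changed. All 4 group ranges overlapped that of the sham libraries, from -5.96 to -3.45.

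Socs3 had the highest fold change of the 9 genes tested in the mean of the CCI groups. Its levels were 6.70, 4.31, 4.70, 3.60 and 4.44 CPM in TD-CCI, 7.12, 2.06, 3.59, 2.70 and 1.16 in TCF-CCI, 16.1, 4.97, 4.00, 2.69 and 7.28 in TNF-CCI, 8.36, 10.4, 2.25, 1.40 and 2.79 in Vehicle-CCI, and 1.12, 0.740, 0.902, 0.652 and 2.83 in Vehicle-sham. TD-CCI was the most even group and lay wholly above the sham libraries, while Vehicle-CCI split into 2 high and 3 low libraries. Vehicle-sham 5 lay far above the other sham libraries and overlapped with 7 injured ones. Socs3 rose by a log2 fold change of 1.93 ± 0.50 (adjusted p = 0.0311, edgeR; 13 of 20 injured libraries above every sham library).

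Stat3, which acts directly upstream of Socs3, moved less. It averaged 41.0 ± 11.5 CPM (SD, n = 20) in the CCI libraries and 27.7 ± 9.60 CPM (n = 5) in Vehicle-sham, with a log2 fold change of 0.55 ± 0.20 that did not pass (adjusted p = 0.0871, edgeR). The log2 ratio of Socs3 to Stat3 was -3.27 ± 0.63 in the CCI libraries and -4.61 ± 0.43 in Vehicle-sham. That difference of 1.34 exceeded the spread (two-sided exact permutation test, p = 0.000113, adjusted over 3 ratios 0.000339), and 18 of 20 injured libraries lay above every sham library. It was 1.30 without Vehicle-sham 2 and 3 and passed (two-sided exact permutation test, p = 0.00282, adjusted over 3 ratios 0.00847). By group the ratio was above every sham value in 5 of 5 TD-CCI, 4 of 5 TCF-CCI, 5 of 5 TNF-CCI and 4 of 5 Vehicle-CCI libraries.

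Of the 9 members, 3 (Socs3, Osmr and Il1r1) rose with the CCI groups averaged, beside 5.92% of all genes called, 2.24% higher and 3.68% lower. At an unadjusted p under 0.05 there were 6 of 9 members, beside 24.7% of all genes. No member was without overlap between the injured and sham libraries, beside 0.0807% of all genes (0.0427% higher). The median log2 fold change of the 9 was 0.91, against 0.01 over all genes tested. Without Vehicle-sham 2 the count was 0, and it was 1 (Il1r1) without Vehicle-sham 3 or without Vehicle-sham 4, and 0 without Vehicle-sham 2 and 3 together. Without Vehicle-sham 2 and 3 the log2 fold changes were 1.67 ± 0.62 for Socs3, 1.02 ± 0.44 for Osmr and 0.99 ± 0.27 for Il1r1 (edgeR, adjusted p = 0.202, 0.264 and 0.133). The count was 5 without Vehicle-CCI 3 or without Vehicle-CCI 4, with Il1b and Il6st added.

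**Figure D2:**
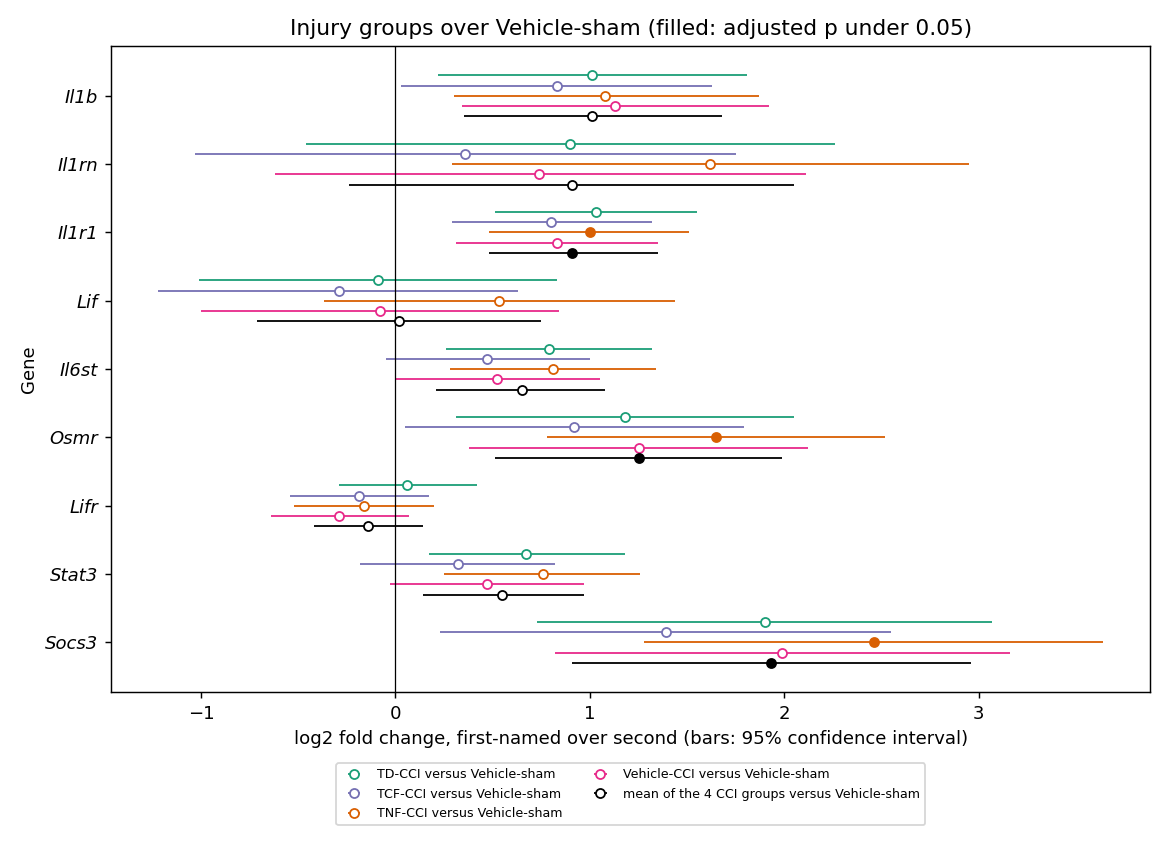
Log2 fold change of the 9 tested genes over Vehicle-sham for each injured group and for the mean of the 4 (black), with 95% confidence intervals; filled points have an adjusted p under 0.05. Socs3 reached 2.46 in TNF-CCI, and the Lifr and Lif intervals include 0 in all 5 comparisons.

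Taken group by group, the same 3 members rose in TNF-CCI over Vehicle-sham. Socs3 rose by 2.46 ± 0.57 (log2 fold change; adjusted p = 0.0269, edgeR), Osmr by 1.65 ± 0.42 (adjusted p = 0.0388) and Il1r1 by 1.00 ± 0.25 (adjusted p = 0.0372), beside 2.57% of all genes called and 1.71% called higher. At an unadjusted p under 0.05 there were 7 of 9 members beside 20.0% of all genes, and Il1r1 alone was without overlap, beside 3.51% of all genes (2.58% higher). The count was 0 without TNF-CCI 1 or TNF-CCI 5, and 0 without Vehicle-sham 2, 3 or 4. Without Vehicle-sham 2 and 3 together the log2 fold changes were 2.19 ± 0.69 for Socs3, 1.42 ± 0.50 for Osmr and 1.07 ± 0.30 for Il1r1 (edgeR, adjusted p = 0.146, 0.192 and 0.111). Without TNF-CCI 2 it was 5, with Il6st and Stat3 added. When the share of mitochondrial rRNA was a covariate only Il1rn passed, and in a fit of only the groups compared only Socs3 passed. That share was 3.29%, 10.9%, 4.17%, 3.02% and 2.95% in TNF-CCI and 5.56% to 9.89% in the other CCI libraries. Totals ran from 35.2 to 44.9 M counts in TNF-CCI and from 28.7 to 38.0 M in the other CCI libraries. Whether these library traits shaped the TNF-CCI calls was not tested further.

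In the other 3 injured groups no member passed in the edgeR fit of all 25 libraries without a block. For TD-CCI over Vehicle-sham the background was 0.0% called, and 6 of 9 members had an unadjusted p under 0.05 beside 16.5% of all genes. Socs3 stood at 1.90 ± 0.57, Osmr at 1.18 ± 0.42, Il1r1 at 1.03 ± 0.25 and Il6st at 0.79 ± 0.26 there. Il1r1, Il1b, Il6st and Socs3 did not overlap with the sham libraries, beside 3.23% of all genes without overlap (2.36% higher). DESeq2 called 2 members (Il1r1 and Socs3) in this comparison and limma voom called 0. When edgeR was fitted to these 2 groups alone it called Socs3, and with the replicate number as a block it called Il1r1.

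For TCF-CCI over Vehicle-sham 0.0142% of genes were called, and 4 of 9 members had an unadjusted p under 0.05 beside 18.0% of all genes. Socs3 stood at 1.39 ± 0.56, Osmr at 0.92 ± 0.42 and Il1r1 at 0.80 ± 0.25, and both DESeq2 and limma voom called 0 members. Il1b was without overlap, beside 3.55% of all genes (1.73% higher). For Vehicle-CCI over Vehicle-sham 0.0% of genes were called, and 4 of 9 members had an unadjusted p under 0.05 beside 12.7% of all genes. Socs3 stood at 1.99 ± 0.57, Osmr at 1.25 ± 0.42, Il1b at 1.13 ± 0.38 and Il1r1 at 0.83 ± 0.25, and DESeq2 called 1 member (Socs3) and limma voom 0. Il1r1 was without overlap, beside 0.783% of all genes (0.465% higher). These comparisons share the same sham libraries.

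The authors' deposited tables hold their own DESeq2 fits of each injured group over control. In the authors' deposited table Socs3 had an adjusted p of 0.000194 in TD-CCI, 0.123 in TCF-CCI, 0.000332 in TNF-CCI and 0.0779 in Vehicle-CCI. For Osmr the authors' deposited table gave 0.0111 in TD-CCI, 0.192 in TCF-CCI, 0.00261 in TNF-CCI and 0.267 in Vehicle-CCI. Il1r1 had an adjusted p of 0.0106, 0.0254, 0.000911 and 0.077 for the same groups in the authors' deposited table. Only the TD-CCI table of the authors' deposited tables put Il6st under 0.05 (adjusted p = 0.0151). Over all genes, these DESeq2 tables put 509 under 0.05 in TD-CCI, 423 in TCF-CCI, 797 in TNF-CCI and 70 in Vehicle-CCI. The fits come from the same series, so they are not an independent check of the calls above. What they give without the sham libraries high in mitochondrial rRNA was not tested.

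None of the 9 members differed between a supplement group and Vehicle-CCI in edgeR, DESeq2 or limma voom, and 0 of 9 had an unadjusted p under 0.05 in any of the 3 comparisons. The background was 0.0% of genes called in each, with an unadjusted p under 0.05 for 1.75% of genes in TD-CCI, 1.44% in TCF-CCI and 3.46% in TNF-CCI. In TNF-CCI over Vehicle-CCI the log2 fold change was 0.88 ± 0.60 for Il1rn (95% confidence interval -0.36 to 2.12), 0.47 ± 0.53 for Socs3 (-0.62 to 1.56) and 0.40 ± 0.41 for Osmr (-0.44 to 1.24). All 5 TNF-CCI libraries lay above the Vehicle-CCI mean for Il1rn. In TCF-CCI over Vehicle-CCI 8 of the 9 values were below 0, Socs3 lowest at -0.60 ± 0.54 (-1.71 to 0.50). In TD-CCI over Vehicle-CCI the values ran from -0.12 to 0.35, and Lifr was highest at 0.35 ± 0.17 (edgeR, adjusted p = 1.0). The intervals are wide, reaching past 1 for Socs3 in TD-CCI and TNF-CCI, so these values do not show that the groups were alike.

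**Figure D3:**
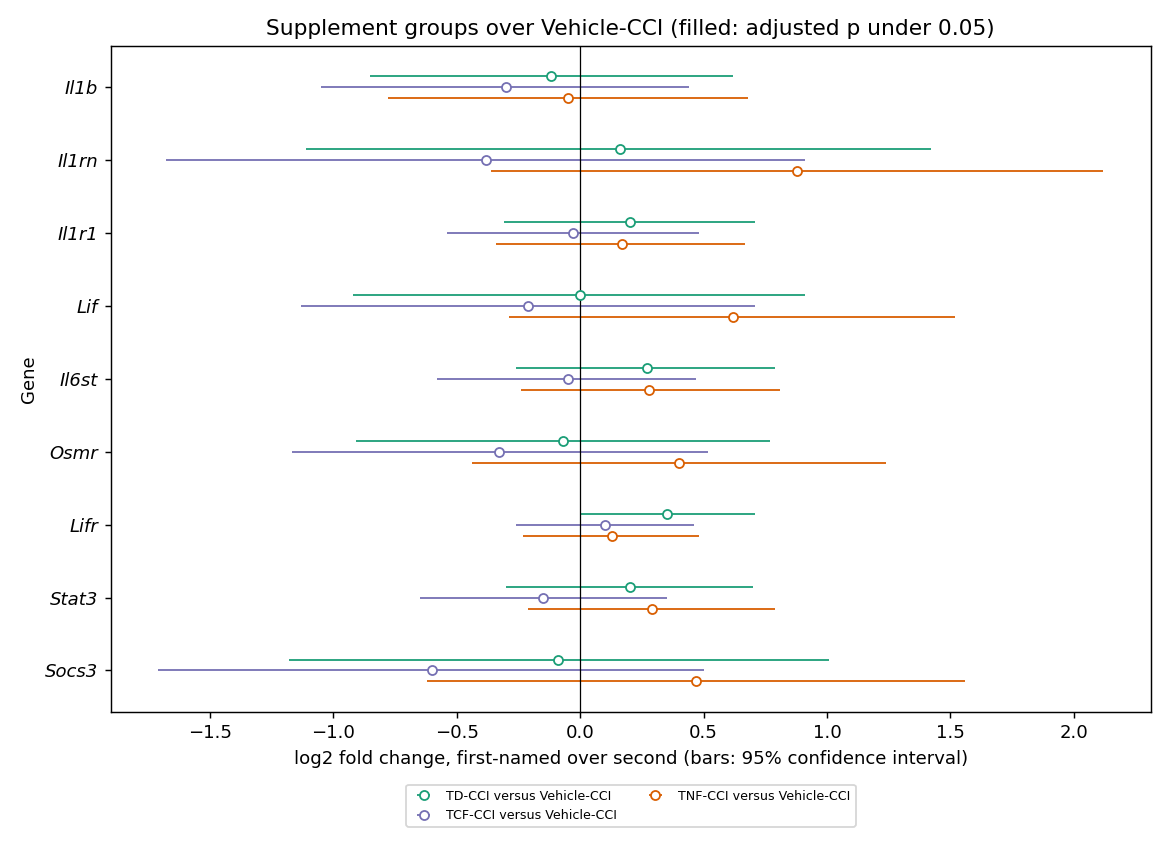
Log2 fold change of the 9 tested genes in each supplement group over Vehicle-CCI, with 95% confidence intervals; open points did not pass an adjusted p of 0.05. No point is filled, and the widest intervals belong to Il1rn and Socs3.

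Between supplements, no member passed in edgeR either, with 0 of 9 at an unadjusted p under 0.05 and 0 called by DESeq2 or limma voom. The background was 0.0% of genes called, and 5.12% of genes in TNF-CCI over TCF-CCI, 2.45% in TNF-CCI over TD-CCI and 1.91% in TD-CCI over TCF-CCI had an unadjusted p under 0.05. In TD-CCI over TCF-CCI all 9 values were above 0, from 0.18 to 0.54 at a median of 0.26, against 0.01 over all genes tested. All 9 were also above 0 in TNF-CCI over TCF-CCI, where the differences were widest. Members varied together over libraries, as given below, so these signs are not independent. In TNF-CCI over TCF-CCI Il1rn stood at 1.26 ± 0.61 (unadjusted p = 0.0504 and adjusted p = 0.973 in edgeR), Socs3 at 1.07 ± 0.54 and Osmr at 0.73 ± 0.41. The median over the 9 was 0.44, against 0.02 over all genes tested.

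Within the injured groups, libraries high in 1 member tended to be high in others. Over the 20 CCI libraries Osmr and Socs3 had Pearson r = 0.97 and Spearman rho = 0.95 (permutation test, both p = 1e-05, the smallest the 100000 permutations give; adjusted over 36 member pairs 0.000144 and 0.00018). The r was 0.96 without the 2 libraries farthest from the median of Osmr and 0.97 with group means subtracted. Socs3 and Stat3 had r = 0.88 and rho = 0.85, and Il6st and Stat3 had r = 0.85 and rho = 0.81 (permutation test, adjusted p = 0.000144 for both r, 0.00036 and 0.000432 for rho). In all, 21 of 36 pairs passed an adjusted p of 0.05 by Pearson r. Of these, Il6st with Osmr (r = 0.47) and Il1rn with Stat3 (r = 0.51) missed it without the 2 farthest libraries (permutation test, adjusted p = 0.0752 and, rounded, 0.05). Lifr passed with no other member over all 20 libraries, its r running from -0.23 with Lif to 0.32 with Stat3. Without the 2 farthest libraries 2 pairs were gained, Lifr with Osmr (r = 0.51, permutation test, adjusted p = 0.0491) and Il1b with Il6st (r = 0.54, adjusted p = 0.0387). The points share library depth and scaling.

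Single marker genes of phagocytes and astrocytes were set beside the members. Over the 20 CCI libraries, Cd68, a lysosomal protein of phagocytic microglia and macrophages, followed Socs3 with r = 0.93 and rho = 0.91, and Osmr with r = 0.91 and rho = 0.92 (permutation test, p = 1e-05 each, the smallest possible; adjusted over 18 relations 6e-05 for r and 9e-05 for rho). With Il1rn the r was 0.79, with Il1b 0.69 and with Lifr 0.12. Gfap, the astrocyte intermediate filament, followed Stat3 with r = 0.85 and rho = 0.80 (permutation test, adjusted p = 6e-05 and 0.000468) and Socs3 with r = 0.81 and rho = 0.72 (adjusted p = 9e-05 and 0.00139). For Il1r1 and Gfap r was 0.38 and did not pass (permutation test, adjusted p = 0.119). Of 18 relations 14 passed by Pearson r. Those of Gfap with Il1b, Il1rn and Osmr rest on the 2 libraries farthest from its median, with r = 0.50, 0.39 and 0.48 without them (permutation test, adjusted p = 0.0505, 0.14 and 0.0583). Without the 2 farthest libraries r was 0.89 for Cd68 with Socs3 and 0.76 for Gfap with Stat3.

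**Figure D4:**
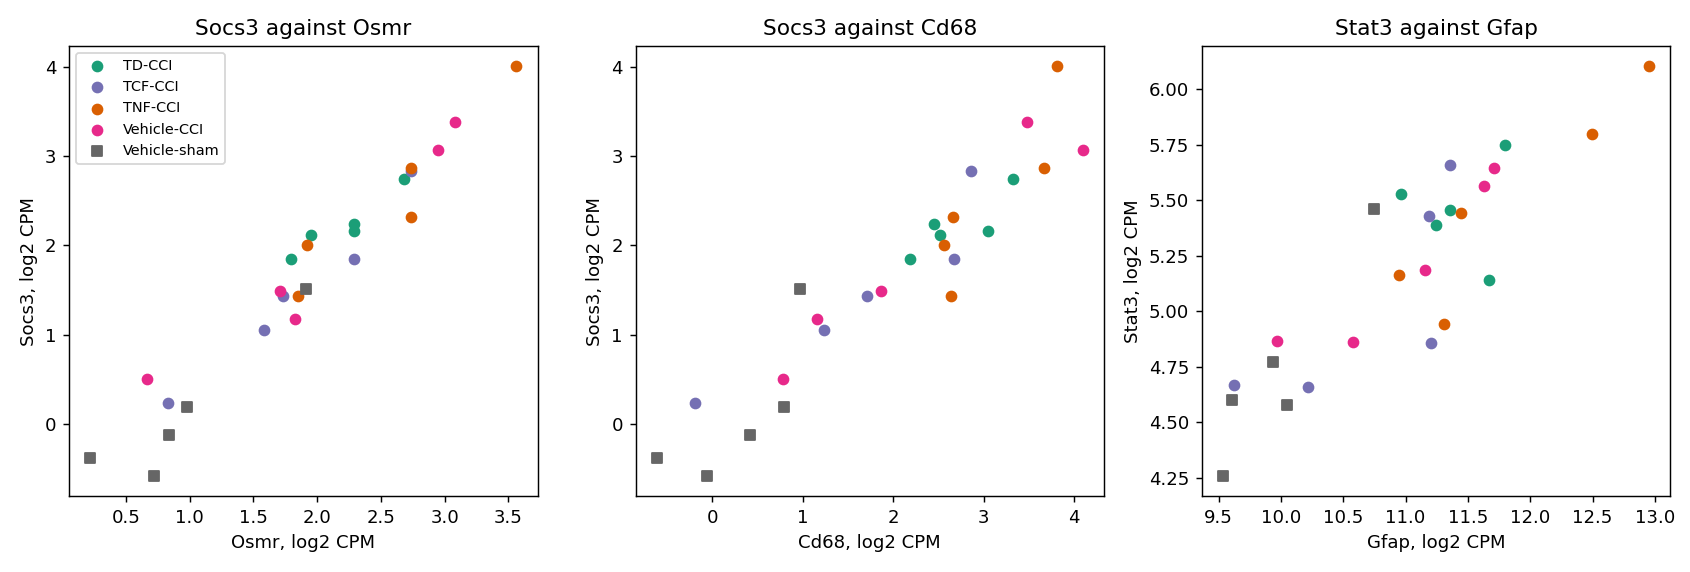
Socs3 against Osmr, Socs3 against Cd68 and Stat3 against Gfap, each axis in log2 CPM, 1 point per library; squares are Vehicle-sham and circles the 4 CCI groups. Over the 20 CCI libraries Pearson r was 0.97, 0.93 and 0.85.

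Levels of cell type markers moved with the injured groups. The sum of 6 phagocyte markers had a median of 217 CPM in TD-CCI, 179 in TCF-CCI, 334 in TNF-CCI, 208 in Vehicle-CCI and 80.4 in Vehicle-sham, and 5 of the 6 rose in the mean of the CCI groups. This sum ran from 82.7 to 437 CPM over the CCI libraries and from 73.3 to 150 CPM in Vehicle-sham, with overlap. Cd63, the marker not called and named after its value was seen, averaged 73.5 CPM in Vehicle-sham and so made up most of the sum there. The sum of 7 microglia markers was 175 to 488 CPM over the CCI libraries and 145 to 191 CPM in Vehicle-sham, with 4 of 7 higher. The sum of 6 astrocyte markers was 2560 to 10700 CPM against 2610 to 4130 CPM, and Gfap alone of the 6 passed (log2 fold change 1.33 ± 0.34, edgeR, adjusted p = 0.0289). Where Socs3 reached 6.70 CPM or more, the astrocyte sum was 10700 CPM in TNF-CCI 1 and 8320 CPM in TNF-CCI 5. There it was also 6000 CPM in Vehicle-CCI 1, 5000 in TCF-CCI 1, 4680 in Vehicle-CCI 2 and 4110 in TD-CCI 1. The bound of 6.70 CPM is the Socs3 level of TD-CCI 1 and was chosen from these data. Gfap alone made up 7940 CPM of the sum in TNF-CCI 1, 5790 in TNF-CCI 5 and 1990 in TD-CCI 1. The high sums of the TNF-CCI libraries were thus mostly Gfap. The median of the astrocyte sum over the CCI libraries was 4810 CPM. Over all genes 2.24% were called higher and 3.68% lower in this comparison. The neutrophil genes S100a8 and S100a9 stood at 0.404 ± 0.462 and 0.906 ± 0.749 CPM (n = 20) over the CCI libraries and 0.965 ± 1.23 and 1.70 ± 1.82 CPM (n = 5) in Vehicle-sham. Of the remaining lists, 1 of 6 neuron markers was lower (Camk2a), 1 of 6 neutrophil (Csf3r), 1 of 2 tested T cell (Cd8a), 1 of 5 fibroblast (Col1a1) and 1 of 4 thalamus markers (Prkcd) were higher, and 0 of 5 endothelial and 0 of 5 choroid plexus markers passed. These markers are named after their values were seen. The other tested T cell marker, Cd3e, was not called and stood lower in the CCI libraries, at 0.835 ± 0.747 CPM (n = 20). In Vehicle-sham it stood at 2.47 ± 1.16 CPM (n = 5). The T cell sum had a median of 1.42 CPM over the CCI libraries and 2.45 CPM in Vehicle-sham. Without Vehicle-sham 2 and 3 no marker passed (edgeR), while 6 of 6 phagocyte, 6 of 7 microglia and 2 of 6 astrocyte markers had an unadjusted p under 0.05, and the log2 fold change was 2.09 ± 0.63 for Cd68 and 1.10 ± 0.41 for Gfap. In no list was a marker at a median of 0, and the part of these cell types in the members' changes was not tested.

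**Figure D5:**
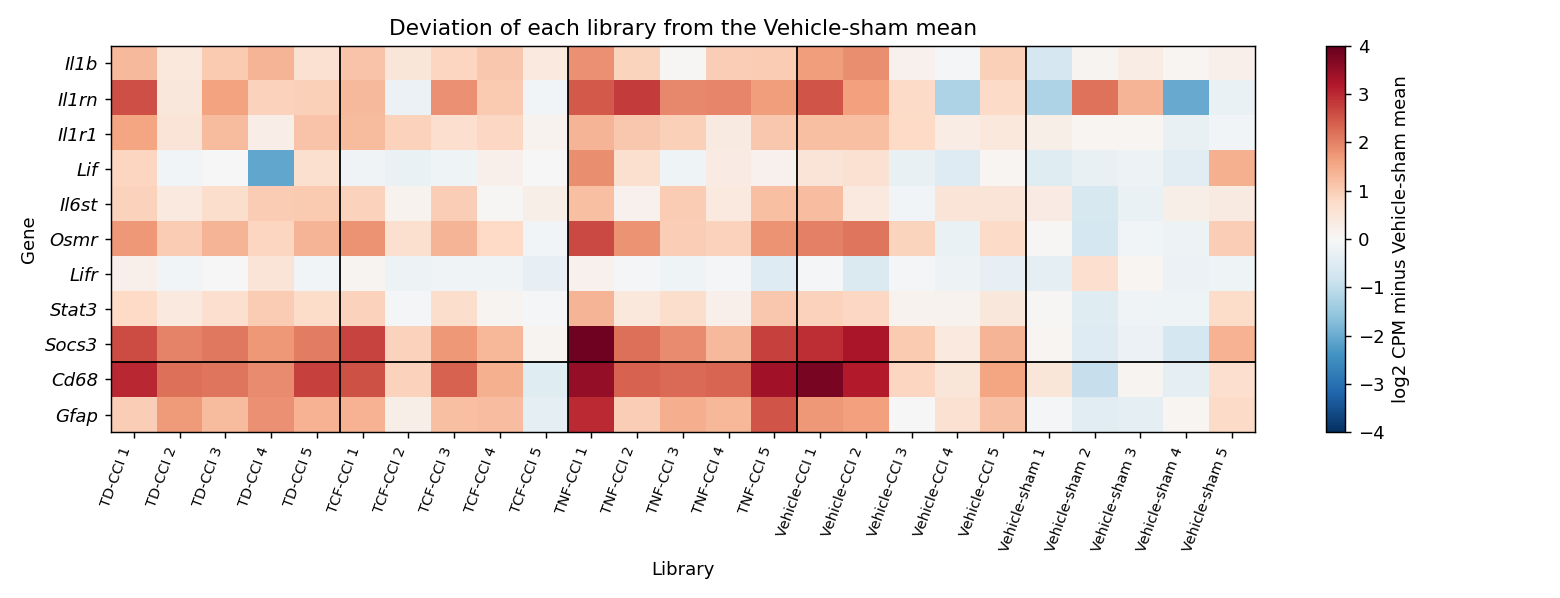
Log2 CPM of the 9 tested genes, Cd68 and Gfap in the 25 libraries, as the difference from the Vehicle-sham mean (colour scale from -4 to 4); black lines part the 5 groups and the 2 marker genes. TNF-CCI 1, Vehicle-CCI 1 and Vehicle-CCI 2 are the darkest columns for Socs3 and Osmr, and TCF-CCI 5 is pale in every row.

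Of 26 other genes of the IL-1 system 21 were tested, and 0 were called higher and 1 lower in the mean of the CCI groups, beside 2.24% and 3.68% of all genes. The median log2 fold change was 0.28, with 15 of 21 above 0, against a median of 0.01 and an upper quartile of 0.23 over all genes. The lower gene was Il1rapl1, a synaptic relative of the IL-1 receptors, at 19.8 ± 6.13 CPM (SD, n = 20) in the CCI libraries and 37.1 ± 19.6 CPM (n = 5) in Vehicle-sham (log2 fold change -0.90 ± 0.24, edgeR, adjusted p = 0.0325). It stood at -0.26 ± 0.26 without Vehicle-sham 2 and 3 (adjusted p = 0.659). Casp1, which cleaves pro-IL-1 beta, missed the threshold at 1.04 ± 0.32 (adjusted p = 0.0508), and Il18 and the IL-33 receptor Il1rl1 did so at 0.82 ± 0.31 and 0.87 ± 0.33 (adjusted p = 0.0976 and 0.107).

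Among the other gp130 cytokines and receptors 13 of 15 were tested, with 1 called higher, 0 lower and a median of 0.02, beside 2.24% of all genes called higher. The gene was Osm, the ligand of Osmr. Its levels were 0.587 to 2.36 CPM in TD-CCI, 0.848 to 1.72 in TCF-CCI, 0.999 to 2.22 in TNF-CCI, 0.801 to 3.22 in Vehicle-CCI and 0.341 to 0.825 in Vehicle-sham, and 17 of 20 injured libraries lay above every sham library. Osm rose by a log2 fold change of 1.24 ± 0.34 (adjusted p = 0.0376, edgeR), and stood at 1.04 ± 0.42 without Vehicle-sham 2 and 3 (adjusted p = 0.237). The astrocyte-made cytokine Cntf stood at 0.49 ± 0.16 and the IL-6 receptor chain Il6r at 0.48 ± 0.17, neither past the threshold (adjusted p = 0.068 and 0.0788). In TNF-CCI over Vehicle-sham the 1 gene called was Cntf, at 0.74 ± 0.20 (edgeR, adjusted p = 0.0463), beside 1.71% of all genes called higher, and it stood at 0.92 ± 0.23 without those 2 libraries (adjusted p = 0.09).

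Of 24 further genes of the Janus kinase and STAT route, all tested, 1 was called higher and 0 lower at a median of 0.12, a share near the 2.24% of all genes called higher. That gene was Ptpn6, the SHP-1 phosphatase of blood-derived cells, at 12.1 ± 5.59 CPM (SD, n = 20) in the CCI libraries and 4.81 ± 1.48 CPM (n = 5) in Vehicle-sham (log2 fold change 1.31 ± 0.32, edgeR, adjusted p = 0.0247), and it stood at 1.34 ± 0.39 without Vehicle-sham 2 and 3 (adjusted p = 0.142). Stat5a stood at 0.60 ± 0.22 and Socs5 at -0.41 ± 0.13, neither past the threshold (adjusted p = 0.0932 and 0.0615).

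Of 20 genes listed as STAT3 targets 19 were tested, and 5 were called higher and 0 lower at a median of 0.66, beside 2.24% of all genes called higher. A2m, a protease inhibitor and acute-phase protein of the rat, stood at 103 ± 49.8 CPM (SD, n = 20) in the CCI libraries and 26.7 ± 5.57 CPM (n = 5) in Vehicle-sham (log2 fold change 1.90 ± 0.39, edgeR, adjusted p = 0.0222). Bcl3, a nuclear partner of NF-kB proteins, rose by 2.13 ± 0.62 (adjusted p = 0.0447), the adhesion receptor Cd44 by 0.96 ± 0.28 (adjusted p = 0.0452) and Il4r by 0.66 ± 0.17 (adjusted p = 0.0323). The fifth was the iron-binding secreted protein Lcn2 (1.56 ± 0.46, adjusted p = 0.0453), which, like Cd44 and Bcl3, phagocytes and other reactive cells also express. Without Vehicle-sham 2 and 3 none of the 19 passed and 9 had an unadjusted p under 0.05 (edgeR), with A2m at 1.91 ± 0.51, Bcl3 at 1.89 ± 0.79, Lcn2 at 1.74 ± 0.57, Cd44 at 1.34 ± 0.35 and Il4r at 0.47 ± 0.15. In TNF-CCI over Vehicle-sham 7 of 19 were called higher at a median of 1.09, beside 1.71% of all genes, and A2m rose by 2.24 ± 0.45 (edgeR, adjusted p = 0.0198). Without the 2 sham libraries 0 of 19 passed there, and A2m stood at 2.25 ± 0.57 (adjusted p = 0.09).

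The genes whose log2 CPM over the 25 libraries was most like that of a member were chosen by Pearson r among 16900 genes at a mean of at least 1 CPM. For Socs3 they were Elf4 (r = 0.97) and Sash3 (0.96), and for Osmr Bcl3 and Tlr13 (0.96 each). Il6st was nearest to Tpp1 (0.94) and Cavin1 (0.93), Stat3 to Tnfrsf1a and Trim56 (0.93 each), and Il1b to Adcy7 (0.88) and Pros1 (0.87). Il1r1 was nearest to LOC102555570 (0.91) and Rubcnl (0.90), Il1rn to Tfec (0.86) and Rab7b (0.85), Lif to Tnfaip3 (0.73) and LOC102555048 (0.71), and Lifr to Ednrb (0.80) and Hif1a (0.79). These values describe likeness over libraries that include both injured and sham tissue.

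On mRatBN7.2, the build of the deposited table, counted from 1, the gp130 receptor chains lie on chromosome 2, with Il6st at 44065979 to 44106255, Osmr at 55907119 to 55961373 and Lifr at 56224393 to 56292988. Il1b lies on chromosome 3 at 116577005 to 116583386 and Il1rn on the same chromosome at 7111567 to 7127451. Il6 lies on chromosome 4 at 5214602 to 5219178, Il1r1 on chromosome 9 at 42504917 to 42580958 and Lif on chromosome 14 at 79131049 to 79140486. Stat3 lies on chromosome 10 at 85811206 to 85863057 and Socs3 on the same chromosome at 103193909 to 103197322. Il6st, Lifr, Il1rn, Il1r1 and Lif are on the plus strand and Il1b, Il6, Osmr, Stat3 and Socs3 on the minus strand.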

How the data were processed

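The values were the authors' deposited read counts per gene in 25 hippocampus libraries, whole numbers with nothing normalised. STAR, Salmon, featureCounts, DESeq2 and the build mRatBN7.2 are named, without versions or roles, per the submitters' processing notes. Per the file headers, 4 deposited tables hold the authors' log2 fold changes and p-values over control. The strand setting is not given in the sources used here. Of 34322 genes, 7 with empty cells were left out. Chi-square per degree of freedom between libraries of the same group was 25.7 to 776.2, so no library was a copy of another and their spread set the precision. No source used states that molecular identifiers were counted, so limits from counts cover counting error only.

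Counts were fitted with edgeR 4.0.16 in R 4.3.3 (TMM factors, filterByExpr by group, robust quasi-likelihood F test). A single model held the 25 libraries and gave 11 contrasts, first-named group over the second, with Benjamini-Hochberg adjustment over 21064 genes and a threshold of 0.05. CPM values were computed here, and ratios were tested by exact permutation, correlations by 100000 permutations. Alternatives were DESeq2 1.42.0, limma 3.58.1 voom, other filters, scalings and covariates, a replicate block and leaving out each library. Correlations between members were added after seeing the data. The members, lists and tests were chosen with earlier results of these data known. The text names all 10 members, up to 4 genes of smallest p in each pathway list, the first 2 markers of a cell type list and the 2 genes most like each member, and Lcn2 was named after its value was seen. On simulated data of 20860 genes for the mean of the CCI groups, the fit called 49 of 50 genes raised by 2 on the log2 scale, 34 of 50 raised by 1, and 8 of 20668 unchanged genes. No simulated result is given for sham libraries that stand apart, as those high in mitochondrial rRNA did here. The simulated counts therefore give no error rate for calls that depend on those libraries.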

Additional observations from a re-analysis of the deposited data

Results flagged for a closer look

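In 50 groups of 5 libraries (10 genes in 5 groups), 4 single libraries stood apart by Dixon's criterion, whose critical value for 5 is 0.71, and chance alone flags about 1 group in 20. Lif in TNF-CCI 1 was 4.39 CPM, with the other TNF-CCI libraries from 1.08 to 1.91 CPM. Lif in Vehicle-sham 5 was 3.27 CPM, with the other sham libraries from 0.86 to 1.05 CPM, and Socs3 in the same library was 2.83 CPM, with the others from 0.652 to 1.12 CPM. Il6 in Vehicle-sham 2 was 0.341 CPM, with the other sham libraries from 0.0 to 0.0884 CPM, and rested on 6 counts.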

How the results depend on the processing

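For the mean of the CCI groups over Vehicle-sham, 3 members and 1248 genes were called. The member count was 1 when the share of mitochondrial rRNA was a covariate, 5 with DESeq2 and 0 without Vehicle-sham 2 and 3. It ran from 0 to 5 when 1 library was left out. The gene count was 2070 without a filter, 168 with the covariate, 2448 with DESeq2 and 0 without Vehicle-sham 2 and 3, and 14 to 2117 with 1 library left out.

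For TNF-CCI over Vehicle-sham, 3 members and 542 genes were called. The member count was 1 with the covariate, 1 with only the groups compared, 5 with DESeq2 and 0 without both sham libraries (0 to 5 with 1 library left out). The gene count was 1190 with the replicate block, 103 with the covariate, 197 with only the groups compared, 1444 with DESeq2, 946 with voom and 0 without both sham libraries (0 to 1563 with 1 left out).

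For TD-CCI over Vehicle-sham, 0 members were called in the fit reported, 1 with the replicate block (Il1r1), 1 with only the groups compared (Socs3) and 2 with DESeq2. Of all genes 0 were called there, 1 without a filter, 45 with the block, 139 with only the groups compared, 250 with DESeq2, 2 with voom and 0 to 4 with 1 library left out. For Vehicle-CCI over Vehicle-sham, DESeq2 called 1 member and 254 genes, the block 1 gene, and leaving out 1 library 0 to 1 members and 0 to 368 genes, with the upper values without Vehicle-CCI 4. For TCF-CCI over Vehicle-sham 3 genes were called, 0 without a filter, with the covariate or without both sham libraries, 1 with only the groups compared, 256 with DESeq2, 388 with voom and 0 to 6 with 1 left out. Between CCI groups DESeq2 called 1 gene in TD-CCI over Vehicle-CCI, TNF-CCI over Vehicle-CCI and TNF-CCI over TD-CCI, and 6 in TNF-CCI over TCF-CCI, where voom called 12. The cause of these moves was not tested.

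Signs turned for Lif and Lifr. For the mean of the CCI groups, Lif stood at -0.13 with the covariate and -0.20 without both sham libraries (-0.12 to 0.62 with 1 left out), and Lifr at 0.08 with the covariate, 0.06 with voom and 0.17 without both sham libraries (-0.24 to 0.09). In Vehicle-CCI over sham Lif was 0.12 with voom (-0.23 to 0.52 with 1 left out) and Lifr 0.02 without both sham libraries. In TD-CCI Lif was 0.04 with voom (-0.34 to 0.51) and Lifr ran from -0.05 to 0.29. In TCF-CCI Lifr was 0.07 with voom and 0.12 without both sham libraries (-0.28 to 0.05), and Lif ran from -0.43 to 0.31. In TNF-CCI Lifr was 0.13 with the covariate and 0.15 without both sham libraries (-0.26 to 0.07).

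Signs also turned among changes near 0 over Vehicle-CCI, given as ranges with 1 library left out. They were, for TD-CCI over Vehicle-CCI, Il1b -0.31 to 0.15, Il1rn -0.32 to 0.72, Lif 0.00 without both sham libraries (-0.26 to 0.26), Osmr 0.03 with the block and 0.17 with voom (-0.29 to 0.22) and Socs3 0.10 with the block and 0.33 with voom (-0.33 to 0.36). They were, for TCF-CCI over Vehicle-CCI, Il1r1 0.03 with voom (-0.15 to 0.10), Il1rn -0.73 to 0.18 and Il6st -0.20 to 0.18. They were, for TNF-CCI over Vehicle-CCI, Il1b -0.33 to 0.22 and Socs3 -0.09 to 0.92.

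The log2 ratio of Il1rn to Il1b ran from -0.15 to 0.89 with 1 library left out. Without both sham libraries, a setting added after seeing the data for ratios and lists, it was 1.43 and passed, and that of Osmr to Lifr was 0.82 and did not. Without the 2 libraries farthest from the median, r turned to -0.06 for Cd68 with Lifr, -0.13 for Gfap with Lifr and 0.07 for Lif with Lifr.

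The correlation of deviations from the group means had a median of 0.105 over 50 pairs of libraries with the same number, 26 of them over 0.1, and of -0.0165 over 200 pairs with other numbers, 41 of them over 0.1. Same-numbered libraries thus tended to deviate together, but not every pair did, and no label says what a number shares, so the fit without a block is the one reported. With the replicate block the members called were 4 for the mean of the CCI groups and 4 for TNF-CCI, Il6st being added in both.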
